A study of Nematostella vectensis with 96 samples.

Results

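The gene model NVE8107 of the sea anemone *Nematostella vectensis*, annotated as *nvPAR-bZIPc*, was followed across 4 light conditions and 6 times of day. It is 1 gene of the 23927 gene models counted, and it was chosen by its level in the blue libraries, where its reads were most numerous at night. Its blue values therefore describe the gene and were not tested, and its main tests use green, red and DD libraries. Earlier results of these data were known when the gene was chosen, so those tests are not independent of the choice. Blue libraries were tested for other genes. Each library came from the whole body of 1 adult animal, laboratory bred, kept for 1 month in its light condition and starved before collection. The lit groups received blue, green or red light for 12 h of each day, with lights on at Zeitgeber time 0 (ZT0), and the remaining group was kept in constant darkness (DD). Animals were collected every 4 h at ZT2, ZT6 and ZT10 (the photoperiod) and at ZT14, ZT18 and ZT22 (the scotoperiod), with 4 animals for each light condition and time. For DD animals these words name the corresponding subjective hours.

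PAR-bZIP proteins are transcription factors that bind DNA through a basic region and pair through a leucine zipper, and their name refers to a domain rich in proline and acidic amino acids. In mammals the family includes DBP, TEF and HLF, whose transcripts cycle daily under the control of the CLOCK:BMAL1 dimer and whose proteins pass the rhythm on to other genes. In *Drosophila* the family member Pdp1 activates *Clock*, in a loop that runs beside the one closed by negative regulators. In models of the cnidarian clock, PAR-bZIP genes and cryptochromes are placed downstream of Clock and its partner Cycle.

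The deposited counts of the 93 libraries used added up to between 104048 and 706046 per library, with a median of 344755. The other libraries of the 96 held 1455 counts (red ZT6 replicate C), 25683 counts (DD ZT6 replicate D) and 289 counts (DD ZT22 replicate C), all with 0 counts of *nvPAR-bZIPc*, and were left out for falling under 100000. These 3 groups therefore have n = 3. The shallowest libraries kept were blue ZT10 replicate D with 104048 counts and blue ZT14 replicate B with 111676. *nvPAR-bZIPc* is a rarely read transcript. It had 545 counts over the 93 libraries, between 0 and 22 in each, and 6488 of the 9597 genes tested had a higher mean count than its 5.86. Levels are given in CPM, counts in each 1000000 of a total scaled by the trimmed mean of M-values (TMM), on which scale 1 count was worth 1.25 to 12.7 CPM depending on the library. A library with 0 counts still allows up to 3, which is 8.80 CPM at the median depth. This limit and the counts cover counting error only. Among animals of the same group the counts of *nvPAR-bZIPc* spread 1.66 times as much as counting error (chi-square per degree of freedom, 69 degrees of freedom). In whole animals, fewer cells that make a transcript and less transcript per cell cannot be told apart.

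In blue light *nvPAR-bZIPc* was rarely read in the photoperiod and was highest in the middle of the scotoperiod. At ZT2 the 4 animals had 0, 0, 2.55 and 7.69 CPM. At ZT6 they had 2.83, 7.62, 4.49 and 9.29 CPM. At ZT10 they had 7.94, 27.6, 4.18 and 13 CPM. Of these 12 animals only 1, at ZT10, passed 20 CPM, and 2 of the animals at ZT2 had no read of the gene. At ZT14 the animals had 44.5, 34.7, 62.3 and 46.5 CPM. At ZT18 they had 78.6, 52.8, 144 and 94.9 CPM, from 22, 16, 22 and 22 counts. At ZT22 they had 12.1, 30.8, 30.1 and 20.1 CPM. All animals of ZT14 and ZT18 lay above every photoperiod animal, whereas the range of ZT22 overlapped that of ZT10. The lowest ZT14 value, 34.7 CPM, came from 3 counts (replicate B), and the 13 CPM at ZT10 from 1 count (replicate D). In these shallow libraries 3 counts, the limit of a 0 count, were worth 33.7 and 38.1 CPM, so their place in this separation is uncertain.

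**Figure D1:**
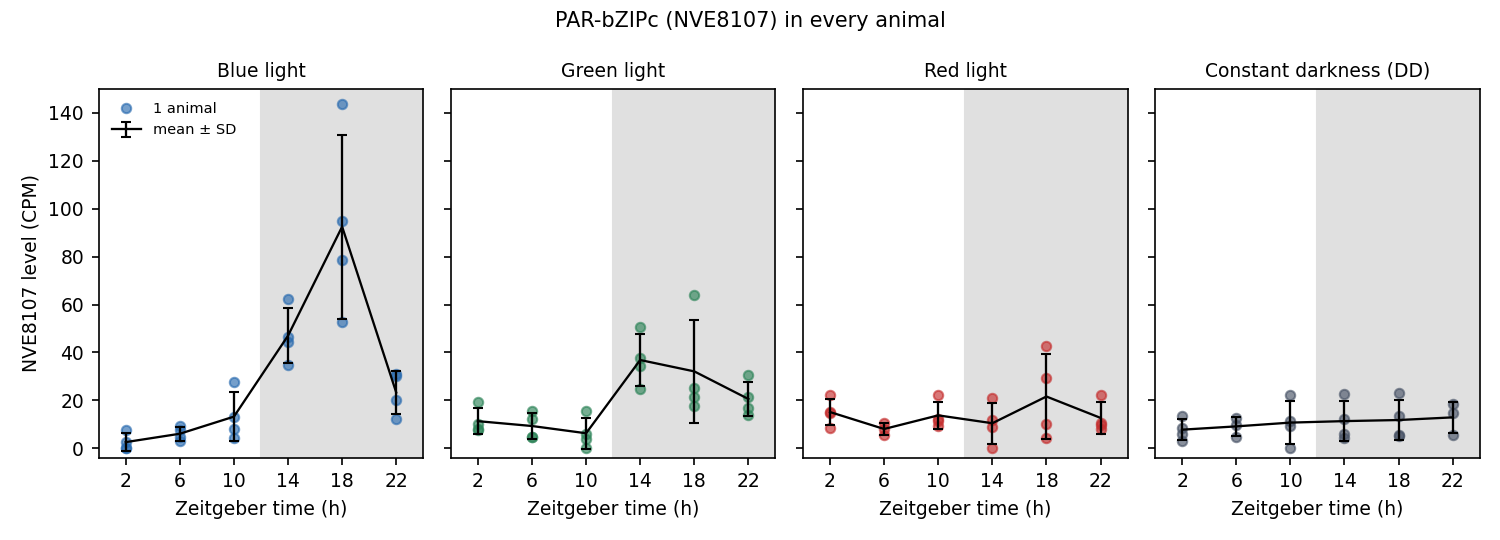
Level of *nvPAR-bZIPc* (y axis, CPM) against Zeitgeber time (x axis, h) in blue light, green light, red light and DD, with 1 point per animal and black lines for the group mean ± SD (n = 4, or 3 at red ZT6, DD ZT6 and DD ZT22). Grey areas mark the scotoperiod. The blue animals at ZT18 sit between 52.8 and 144 CPM, while no DD animal passes 22.9 CPM at any time.

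Group means in blue light were 2.56 ± 3.62 CPM at ZT2, 6.06 ± 2.93 CPM at ZT6, 13.2 ± 10.3 CPM at ZT10, 47 ± 11.4 CPM at ZT14, 92.5 ± 38.3 CPM at ZT18 and 23.3 ± 8.93 CPM at ZT22 (SD, n = 4 each). Taken by photoperiod and scotoperiod, the photoperiod animals averaged 7.27 ± 7.50 CPM and the scotoperiod animals 54.3 ± 36.9 CPM (SD, n = 12 each), on 27 and 151 counts. Of the scotoperiod animals, 10 of 12 were above the highest photoperiod animal. The fitted log2 change, photoperiod minus scotoperiod, was -2.84 (standard error 0.33), and for single pairs of times 12 h apart it was -3.88 at ZT2 against ZT14, -3.94 at ZT6 against ZT18, and -0.69 at ZT10 against ZT22. A cosine of 24 h fitted to the same libraries had its peak at ZT16.4 and an amplitude of 2.27 on the log2 scale. These values chose the gene and carry no test. For scale, 7 of the 9597 genes, or 0.0729%, passed a 10% false discovery rate (FDR) for photoperiod minus scotoperiod in blue light, 0.0417% higher and 0.0313% lower, and 0.104% passed for the cosine. Without the shallow libraries of ZT10 and ZT14, the fitted change was -2.85 (standard error 0.35).

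In green light *nvPAR-bZIPc* was also lower in the photoperiod than in the scotoperiod, and its highest group mean came at ZT14. At ZT2 the animals had 19.2, 8.11, 10.2 and 7.76 CPM. At ZT6 they had 15.7, 4.53, 12.2 and 4.69 CPM. At ZT10 they had 5.86, 0, 15.4 and 3.76 CPM. No photoperiod animal reached 20 CPM. At ZT14 the animals had 50.7, 34.3, 37.8 and 24.6 CPM. At ZT18 they had 21.3, 17.8, 25.3 and 64 CPM. At ZT22 they had 21.2, 17.0, 13.7 and 30.4 CPM. Every animal of ZT14 lay above every photoperiod animal, at ZT18 and ZT22 the lowest animals fell within the photoperiod range, and replicate D of ZT18 stood far above the other animals of its group.

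Green group means were 11.3 ± 5.36 CPM at ZT2, 9.29 ± 5.59 CPM at ZT6, 6.26 ± 6.57 CPM at ZT10, 36.8 ± 10.8 CPM at ZT14, 32.1 ± 21.5 CPM at ZT18 and 20.6 ± 7.23 CPM at ZT22 (SD, n = 4 each). The photoperiod animals averaged 8.95 ± 5.73 CPM and the scotoperiod animals 29.8 ± 14.9 CPM (SD, n = 12 each). Of the scotoperiod animals, 9 of 12 exceeded the highest photoperiod animal, and 3 photoperiod animals exceeded the lowest scotoperiod animal. The log2 change, photoperiod minus scotoperiod, was -1.63 (standard error 0.32, 95% interval -2.29 to -0.98, adjusted p = 0.0697 by the quasi-likelihood F test of edgeR), past the 10% FDR. In that comparison 4 of the 9597 genes passed, 0.0417% of those tested, with 3 (0.0313%) higher in the photoperiod and 1 (0.0104%) lower, *nvPAR-bZIPc* itself. The difference of mean CPM, photoperiod minus scotoperiod, was -20.9 CPM (two-sided permutation test over 24 animals, p = 2.0e-05). That p is not adjusted over the 9597 genes, and the gene was chosen with earlier results known. The test shuffled single animals, although the photoperiod and the scotoperiod hold only 3 sampled times each.

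The green call stood near its threshold and depended on single libraries. With 1 of the 24 green libraries left out at a time, the log2 change stayed between -1.91 and -1.47, while the adjusted p ran from 0.0152 to 0.185 and passed 10% FDR in 11 of the 24 cases. The 13 libraries without which it did not pass, at adjusted p of 0.107 to 0.185, were ZT2 replicates B, C and D, ZT6 replicates B, C and D, ZT10 replicates A and D, ZT14 replicates A and C, ZT18 replicates C and D, and ZT22 replicate D. Without ZT18 replicate D, the animal with the highest level, the change was -1.47 (adjusted p = 0.129). When every library was thinned to 100000 counts, the change was -1.44 (adjusted p = 0.797). Thinning was 1 random draw that left fewer counts to test, so the lost call cannot be separated from the loss of counts.

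Single pairs of green time points gave changes below 0, none of which passed the threshold. The log2 change was -1.66 for ZT2 minus ZT14 (standard error 0.50, adjusted p = 0.730), -1.56 for ZT6 minus ZT18 (standard error 0.55, adjusted p = 0.641) and -1.67 for ZT10 minus ZT22 (standard error 0.60, adjusted p = 0.967), all by edgeR. Unadjusted, these p-values were 0.00277, 0.00893 and 0.0102. The sizes were not stable. Without single libraries they ran from -2.02 to -1.46, from -1.94 to -1.07 and from -2.49 to -1.27 in the same order, and after thinning they were -1.25, -2.49 and -0.56. A test for any difference among the 6 green time points had adjusted p = 0.350 and the cosine of 24 h had adjusted p = 0.177, with a fitted peak at ZT18.0 and an amplitude of 1.08 on the log2 scale. The shares of genes that passed were 0.0208%, 0.0313% and 0% for the 3 pairs in that order, 0.0625% for any difference and 0.0625% for the cosine.

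In red light the values of *nvPAR-bZIPc* overlapped throughout the day. At ZT2 the animals had 15.1, 22.2, 8.51 and 14.7 CPM. At ZT6 the 3 animals had 8.14, 5.60 and 10.4 CPM. At ZT10 the animals had 11.3, 9.45, 12.2 and 22 CPM. Only 2 of these 11 animals, at ZT2 and at ZT10, passed 20 CPM. At ZT14 the animals had 0, 12, 20.8 and 9.06 CPM. At ZT18 they had 10.1, 4.46, 29.4 and 42.5 CPM. At ZT22 they had 10.5, 9.76, 22.4 and 8.08 CPM. The only red animals above 22.4 CPM were 2 of the 4 at ZT18, and the other 2 animals of that time were among the lower ones.

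Over the whole photoperiod and scotoperiod, red animals averaged 12.7 ± 5.43 CPM (SD, n = 11) in the photoperiod and 14.9 ± 11.9 CPM (SD, n = 12) in the scotoperiod. The log2 change, photoperiod minus scotoperiod, was -0.26 (standard error 0.36, 95% interval -1.01 to 0.49, edgeR adjusted p = 0.867), in a comparison where 0.135% of genes passed, 0.0417% higher and 0.0938% lower. The mean CPM differed by -2.23 (permutation test, p = 0.596), and without ZT18 replicate D by 0.28 in the other direction. The fitted change at ZT6 minus ZT18 was -1.23 with a 95% interval of -2.58 to 0.12, at ZT2 minus ZT14 it was 0.33 (-0.91 to 1.57) and at ZT10 minus ZT22 it was 0.13 (-1.17 to 1.42). For any difference among the red time points the adjusted p was 0.963, where 0.0521% of genes passed, and for the cosine it was 0.910, where 0.0417% passed.

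In DD the levels stayed low at all hours. At ZT2 the animals had 8.58, 13.6, 5.86 and 2.99 CPM. At ZT6 the 3 animals had 4.88, 12.7 and 9.85 CPM. At ZT10 the animals had 0, 22.2, 11.5 and 9.16 CPM. Only 1 of these 11 animals, at ZT10, passed 20 CPM. At ZT14 the animals had 4.44, 12, 22.7 and 6.14 CPM. At ZT18 they had 22.9, 13.6, 5.66 and 4.96 CPM. At ZT22 the 3 animals had 5.51, 14.9 and 18.3 CPM. The ranges of all 6 times overlapped, and the highest animals came from ZT10, ZT14 and ZT18.

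The DD animals averaged 9.21 ± 6.00 CPM in the subjective photoperiod and 11.9 ± 7.12 CPM in the subjective scotoperiod (SD, n = 11 each). The log2 change was -0.38 (standard error 0.41, 95% interval -1.24 to 0.47, edgeR adjusted p = 0.881), and the difference of mean CPM was -2.72 (permutation test, p = 0.342). In that comparison edgeR called 0% of genes, with 748 of them at an unadjusted p under 0.05, and DESeq2 called 25. For any difference among the DD time points the adjusted p was 0.993, where 0.0208% of genes passed, and for the cosine it was 0.963, where 0.0104% passed. The interval of the DD change reaches -1.24, so a change of that size is not excluded.

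**Figure D2:**
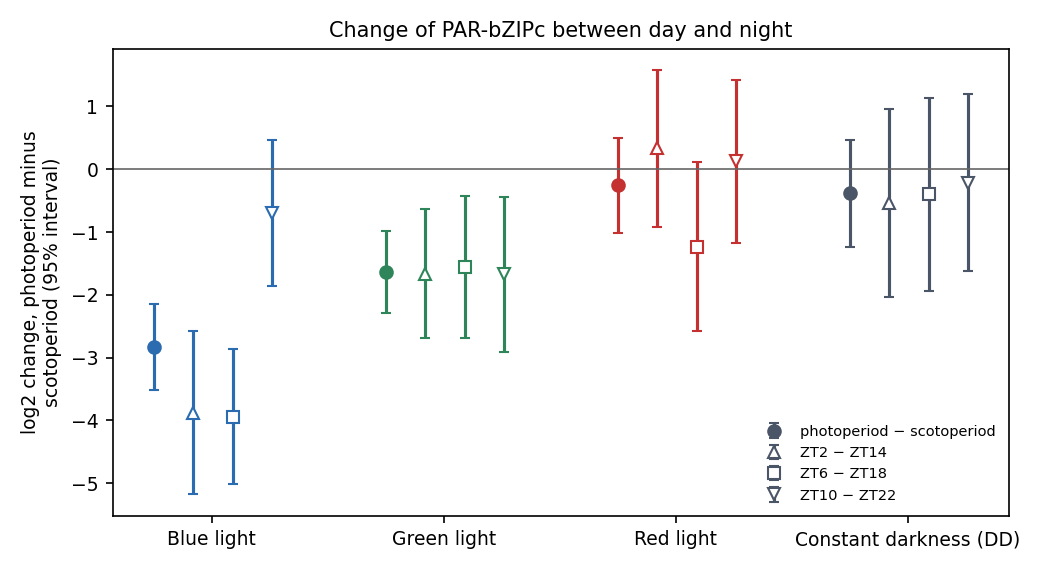
Fitted log2 change of *nvPAR-bZIPc* (y axis) in blue light, green light, red light and DD (x axis). Filled circles are photoperiod minus scotoperiod, open symbols are the 3 pairs of times 12 h apart, and bars are 95% intervals. The blue values chose the gene. The green circle lies at -1.63 with its interval below 0, and the intervals of red light and DD cross 0.

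Whether the change between photoperiod and scotoperiod itself differed among light conditions was tested in 1 fit of the green, red and DD libraries. The green change minus the DD change was -1.25 on the log2 scale (95% interval -2.33 to -0.18, unadjusted p = 0.0228, edgeR adjusted p = 0.820). The green change minus the red change was -1.38 (-2.40 to -0.36, edgeR adjusted p = 1.00, unadjusted 0.00887). The red change minus the DD change was 0.12 (-0.94 to 1.19, adjusted p = 1.00). With a replicate letter or a single library left out, green minus DD ran from -1.79 to -0.69 and green minus red from -2.19 to -1.005. None of these passed, so a green change unlike that of red light or DD was not shown once all genes were accounted for. In each of the 3 comparisons edgeR called 0% of the 9597 genes, with 532, 360 and 520 genes at an unadjusted p under 0.05, and DESeq2 called 2 in each. Comparisons with DD share the DD libraries, and those with green share the green ones.

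The mean level over the 6 times was 19.4 ± 15.4 CPM in green light (SD, n = 24), 13.8 ± 9.23 CPM in red light (SD, n = 23) and 10.6 ± 6.57 CPM in DD (SD, n = 22). Green minus DD was 0.55 on the log2 scale (95% interval 0.0038 to 1.09, edgeR adjusted p = 0.286), where 5.85% of genes passed, and ran from 0.29 to 1.01 with a replicate letter or a single library left out. Red minus DD was 0.25 (-0.29 to 0.79, adjusted p = 0.628), where 13.8% of genes passed. Green minus red was 0.29 (-0.23 to 0.81, adjusted p = 0.827), where 0.115% passed. The average level of *nvPAR-bZIPc* was therefore not shown to differ among these conditions. A test of any difference over the 6 times had adjusted p of 0.445 for green minus DD, 0.938 for red minus DD and 1.00 for green minus red, with 0.542%, 2.81% and 0% of genes passing. For the last of these, 394 genes had an unadjusted p under 0.05.

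Ordered by group mean, the 24 combinations of light and time began with blue ZT18 (92.5 CPM), blue ZT14 (47 CPM), green ZT14 (36.8 CPM), green ZT18 (32.1 CPM), blue ZT22 (23.3 CPM), red ZT18 (21.6 CPM) and green ZT22 (20.6 CPM). Below these came 17 groups between 2.56 and 15.1 CPM, with green ZT10 (6.26 CPM), blue ZT6 (6.06 CPM) and blue ZT2 (2.56 CPM) at the bottom. All 6 scotoperiod groups of blue and green light were thus among the highest 7. Only the step between blue ZT18 and blue ZT14 was larger than the SD of both groups, and in none of the 23 steps did the ranges of neighbouring groups stand apart. The order of neighbours further down carries no information beyond their spread.

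No other PAR-bZIP gene was called in the direction of *nvPAR-bZIPc*, and those called were higher in the photoperiod. In blue light 3 of the 4 were higher in the photoperiod by edgeR at 10% FDR and 0 were lower, beside 0.0417% and 0.0313% of all genes. All 4 had an unadjusted p under 0.05, as had 577 of the 9597 genes. These were *nvPAR-bZIPa* (NVE14677) with a log2 change of 2.80, NVE5408, a bZIP gene similar to it, with 1.91, and *nvPAR-bZIPd* (NVE8085) with 2.89, while *nvPAR-bZIPb* (NVE20636) had 0.66 (adjusted p = 0.516). In green light 2 of the 4 were higher, beside 0.0313% of all genes. These were *nvPAR-bZIPa* by 1.94 and NVE5408 by 1.23 on the log2 scale, while *nvPAR-bZIPd* had 0.76 (adjusted p = 0.807). In red light only *nvPAR-bZIPa* passed, with 1.47, where 0.0417% of all genes passed as higher. In DD edgeR called 0 of the 4, of which 1 had an unadjusted p under 0.05, beside 748 of the 9597 genes. The 4 genes had a median log2 change of 2.35 under blue light, 1.00 under green, 0.10 under red and 0.53 in DD, with the medians over all genes between 0.0023 and 0.016. Of these, *nvPAR-bZIPd* was hardly read in red light, with group means of 0.79 to 6.61 CPM, and in DD, with 0 to 3.16 CPM. Its changes and correlations over those groups carry little information. A bZIP gene outside the family, NVE24988 (annotated as CREB ATF bZIP), had -0.0074 in blue and 0.25 in green and passed in no condition.

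The timing of the group means differed too. *nvPAR-bZIPa* had 193 CPM at blue ZT2, when *nvPAR-bZIPc* had 2.56 CPM, and 10.8 CPM at blue ZT18, when *nvPAR-bZIPc* had 92.5 CPM. In green light *nvPAR-bZIPa* had 115.3 CPM at ZT2 and 20.3 CPM at ZT14, where *nvPAR-bZIPc* had 11.3 and 36.8 CPM. Fitted peaks of *nvPAR-bZIPa* fell at ZT4.9 in blue and ZT5.0 in green light, against ZT16.4 and ZT18.0 for *nvPAR-bZIPc*. Across the 24 group means of log2(CPM + 1), Pearson's r with *nvPAR-bZIPc* was -0.39 for *nvPAR-bZIPa*, -0.42 for NVE5408, -0.43 for *nvPAR-bZIPb* and -0.045 for *nvPAR-bZIPd*. Over the 18 groups without blue light the values were -0.021, -0.14, -0.12 and 0.081, nearer to 0 for the first 3.

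**Figure D3:**
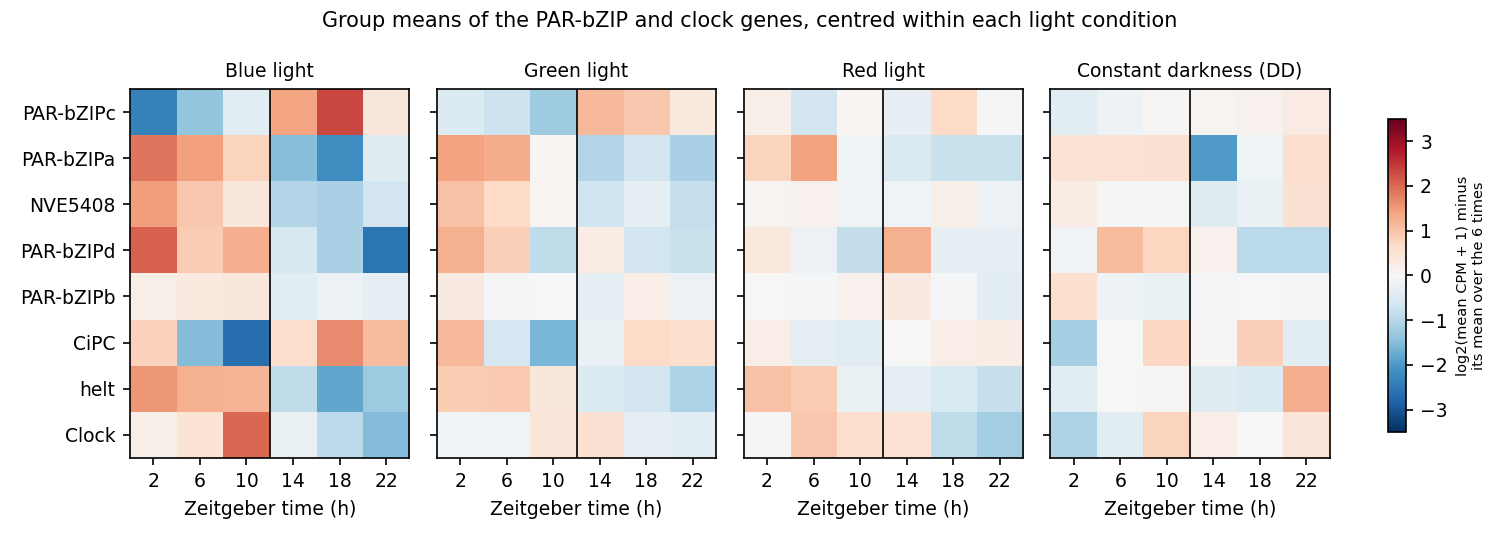
Group means of *nvPAR-bZIPc*, the other PAR-bZIP genes, *nvCiPC*, *nvhelt* and *nvClock* (rows) by Zeitgeber time (columns, h) in blue light, green light, red light and DD. Colour is log2(mean CPM + 1) minus its mean over the 6 times, red for above and blue for below, and the black line marks lights off. In blue light *nvPAR-bZIPc* runs to its highest at ZT18, where *nvPAR-bZIPa* is at its lowest of the 6 times.

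Among 8 clock genes, 1 was higher and 1 lower in the photoperiod of blue light, beside 0.0417% and 0.0313% of all genes. In green light 1 was higher and 0 lower, beside 0.0313% and 0.0104%. An unadjusted edgeR p under 0.05 was found for 5 of the 8 in blue light and 4 in green, beside 577 and 749 of the 9597 genes. The gene *nvhelt* (NVE8679), of the hairy-related family of basic helix-loop-helix repressors, was higher in the photoperiod by 2.66 in blue and by 1.53 in green light on the log2 scale (edgeR adjusted p = 0.00548 in green), with fitted peaks at ZT6.0 and ZT6.1. *nvCiPC* (NVE4116), named for a protein that binds CLOCK and represses it in mammals, was lower in the photoperiod of blue light, with a log2 change of -2.15 (edgeR adjusted p = 0.00690). In green light its change was -0.73 (adjusted p = 0.552), but its cosine passed (adjusted p = 0.0282). Of the listed genes, *nvCiPC* had the highest correlation with *nvPAR-bZIPc* over the 24 group means. These include the blue groups that chose the gene, and *nvCiPC* was not compared over the 18 groups without blue light. Over those 18, the cryptochrome gene *nvCry1b* had r = 0.44, against -0.067 over the 24. *nvCiPC* averaged 48.4 CPM at blue ZT18, yet it was still at 26.4 CPM at blue ZT2, when *nvPAR-bZIPc* had 2.56 CPM. Its fitted peaks lay at ZT20.4 in blue and ZT22 in green light, beside ZT16.4 and ZT18.0 for *nvPAR-bZIPc*. A difference of peak times was not tested. In blue light both genes had their highest group mean at ZT18. In green light the highest mean was at ZT2 for *nvCiPC* (27.1 CPM) and at ZT14 for *nvPAR-bZIPc* (36.8 CPM).

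*nvClock* (NVE2080), which encodes the positive element of the loop, had its highest blue mean at ZT10, with 58.1 CPM, and 11.4 CPM at ZT14, the time at which *nvPAR-bZIPc* had reached 47 CPM. Its photoperiod minus scotoperiod change was 1.93 in blue (adjusted p = 0.162), 0.091 in green (adjusted p = 0.980) and 1.13 in red light (adjusted p = 0.398). The cryptochrome genes *nvCry1a* (NVE1138) and *nvCry1b* (NVE24214), of the flavoprotein family that includes light sensors and clock repressors, had changes of 0.84 and 0.59 in blue and 0.57 and -0.35 in green light, none past the threshold. Neither did *nvTimeout* (NVE19057), *nvCK1* (NVE6915), the casein kinase gene, or NVE7690, annotated as a neuronal PAS domain protein, in any condition. In red light and in DD edgeR called 0 of the 8 clock genes, with 3 of them at an unadjusted p under 0.05 in red light and 1 in DD, beside 927 of the 9597 genes in red light and 748 in DD.

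**Figure D4:**
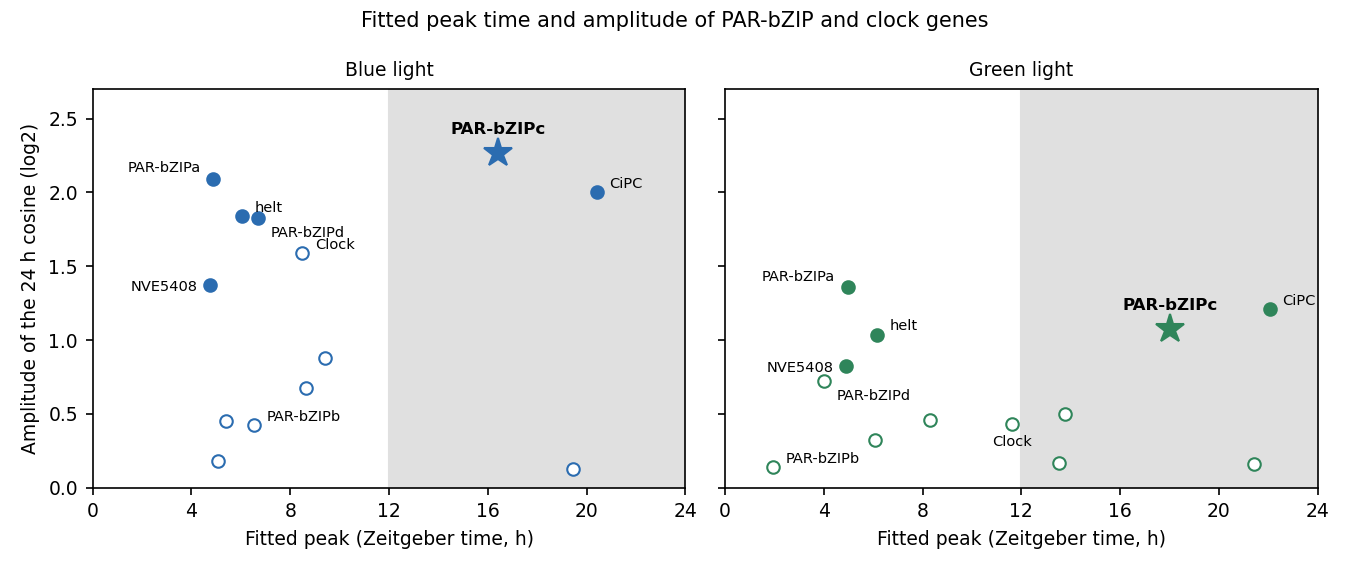
Fitted peak time (x axis, Zeitgeber time in h) and amplitude (y axis, log2) of the 24 h cosine for *nvPAR-bZIPc* (star) and the PAR-bZIP and clock genes (circles, filled where the cosine passed 10% FDR) in blue light and green light. Grey areas mark the scotoperiod, unlabelled circles are *nvCry1a*, *nvCry1b*, *nvTimeout*, *nvCK1* and NVE7690. The star lies at ZT16.4 in blue light and ZT18.0 in green light, away from the circles of the other PAR-bZIP genes at ZT1.9 to ZT6.7.

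Among the 4332 genes whose mean count reached 10, those most like *nvPAR-bZIPc* over the 24 group means were NVE9901, annotated as an HMG domain protein (Pearson's r = 0.62), NVE2343, annotated as a pyridoxal-phosphate dependent enzyme (0.61), and NVE3893 (0.58), NVE2074 (0.56) and NVE11970 (0.56), which the tables used here leave without annotation. The 24 points share the libraries, each gene named here is an extreme of 4332 correlations, and no p is given. With single libraries in place of group means, NVE9901 ranked 1 and NVE3893 4, but NVE2343, NVE2074 and NVE11970 ranked 37, 76 and 63. NVE9901 varied little, with 85.6 CPM at blue ZT2 and 107.4 CPM at blue ZT18. NVE2343 had 64.4 CPM at blue ZT2 and 241 CPM at blue ZT18, but its highest mean was 607 CPM at red ZT22, a time at which *nvPAR-bZIPc* had 12.7 CPM. The least alike were NVE4887 (-0.71), NVE348 (-0.70) and NVE1656, annotated as calponin-1 (-0.68). Over the 18 groups without blue light the most like were NVE18590 (0.77), NVE9025 (0.75), NVE13040, annotated as an RNA binding motif protein (0.74), NVE5223, annotated as a cathepsin (0.73), and NVE13960 (0.72). None of these was among the 5 found with blue light included, and no gene of the 4332 had r over 0.7 across all 24 groups. *nvCiPC*, whose mean count was under 10, had r = 0.42 over the 24 groups, blue light included, rank 146 among the 9596 genes whose mean count reached 3.

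Genes that mark other contents of the body were not called between photoperiod and scotoperiod, but some were called between light conditions. Of 5 nematocyst and venom genes and 2 yolk genes (vitellogenin precursors), edgeR called 0 between photoperiod and scotoperiod in blue light, and 0 in green light, and in each condition 1 venom gene and 0 yolk genes had an unadjusted p under 0.05, beside 577 of the 9597 genes in blue light and 749 in green. The summed venom level of green animals was 593 to 1106 CPM in the photoperiod and 504 to 1050 CPM in the scotoperiod, with medians of 715 and 772 CPM. The summed yolk level of green animals was 100.03 to 408 CPM in the photoperiod and 170 to 564 CPM in the scotoperiod, with medians of 212 and 261 CPM. In mean level over the 6 times, red minus DD had 4 of the 5 venom genes lower, 1 yolk gene higher and 1 lower, a comparison in which 13.8% of all genes passed. Green minus DD had 1 venom gene and 1 yolk gene lower, where 5.85% of all genes passed. Summed venom levels had a median of 745 CPM in green, 714 CPM in red and 1067 CPM in DD animals. Depth also differed, with median totals of 414075 counts in the green photoperiod and 344343 in the green scotoperiod, and of 367498 counts in the blue photoperiod and 287379 in the blue scotoperiod. The part of body contents or depth in the values of *nvPAR-bZIPc* was not tested, and the thinned libraries above cannot settle that of depth.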

How the data were processed

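RNA from 96 whole animals was read as tag-based libraries, which sequence a fragment near the 3′ end of a transcript, so counts do not scale with transcript length. Reads were trimmed and quality filtered with the FastX-toolkit and mapped to the Vienna transcriptome with Bowtie2, and the authors deposited counts of reads mapping to a single gene, whole numbers without normalization, for 23927 gene models. Libraries were grouped by the light condition, time point and replicate letter of their labels, and Zeitgeber times come from the study's methods. No position or sequence of NVE8107 was used here.

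Libraries of at least 100000 counts (93) and the 9597 genes whose mean count over them reached 3 were used. TMM-normalized counts were tested with edgeR 4.0.16 in R 4.3.3 by two-sided quasi-likelihood F tests, Benjamini-Hochberg adjusted over all 9597 genes, at 10% FDR. Each light condition had 1 fit with 6 time points as groups, and green, red and DD were compared in 1 fit of 18 groups. Standard errors were derived from the F statistic. Mean CPM was also tested with 100000 permutations of single animals between photoperiod and scotoperiod, without adjustment over genes. The fits were tested on simulated counts. Likeness is Pearson's r over group means of log2(CPM + 1), computed with numpy 2.4.6, and figures used matplotlib 3.10.9.

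The genes named are NVE8107, lists of PAR-bZIP and clock genes, NVE24988, and 5 venom and 2 yolk genes. Of those lists, NVE5408, NVE6915 and NVE7690 are not among the study's named genes of interest. Also named are the 5 most and 3 least like over 24 groups, and the 5 most like over 18 groups without blue light. NVE8107 and the lists were chosen with earlier results of these data known. The replicate animals are separate, and what they share beyond a letter is not labelled. Alternatives were other library minimums, DESeq2 1.42.0, RLE normalization, no filter or a mean count of 10, robust dispersions, the replicate letter as a block, thinning to 100000 counts, 1 fit of 24 groups, raw totals, other pseudocounts, single libraries and leaving out replicates. Leaving out DD ZT2 replicate A, green ZT18 replicate D and the shallow blue libraries was chosen after seeing the data.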

Additional observations from a re-analysis of the deposited data

Results flagged for a closer look

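In 2 of the 21 groups of 4 animals, 1 animal's level of *nvPAR-bZIPc* stood far from the other animals of its group (gap over range above Dixon's 95% critical value for 4 samples). About 1 group in 20 is expected to show this by chance. In green ZT18, replicate D had 64 CPM, where the other animals had 17.8 to 25.3 CPM. In red ZT22, replicate C had 22.4 CPM, where the others had 8.08 to 10.5 CPM.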

How the results depend on the processing

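The green change of *nvPAR-bZIPc*, photoperiod minus scotoperiod, kept its direction under every alternative run. It passed 10% FDR with RLE normalization, robust dispersions, no filter on low counts, 1 fit of 24 groups and the replicate block. The fit of 24 groups includes the blue libraries, whose values chose the gene. After thinning to 100000 counts, which leaves fewer counts to test, the green change did not pass (log2 change -1.44, adjusted p = 0.797). Without single green libraries the change ran from -1.91 to -1.47. DESeq2 gave -1.67 with an unadjusted p of 2.2e-06 but no adjusted p, as its own filter set the gene aside. That filter left 13 of the results without an adjusted p. Lower library minimums add no green library and say nothing of the green change. With a mean count of at least 10 the gene is not tested and there is no value. The green cosine (adjusted p = 0.177) passed with DESeq2 (0.0127) and with 1 fit of 24 groups (0.0397), and the cause was not tested. In DD the change was 0.17 after thinning, and the red minus DD difference of changes was -0.43 after thinning and ran from -0.26 to 0.45 without a replicate letter or library, none near the threshold. The difference of mean CPM ran from -22.3 to -17.8 in green, from -3.58 to 0.28 in red and from -4.02 to -1.62 in DD without single libraries. Counts of genes called, with 4 in green, 13 in red and 0 in DD, were 45, 78 and 25 with DESeq2, 12, 38 and 98 with no filter, and 39, 32 and 16 in 1 fit of 24 groups. With the replicate letter as a replicate block the green change was -1.65 (adjusted p = 0.0389) and the calls were 12 in green and 25 in red. What libraries of 1 letter share is not labelled, so the letters were not taken as pairs in the main fits. Of the pairs with the same letter, 59 of 225 correlated over 0.1. In green these were 22 of 60, beside 28 of 180 pairs of different letters, and in red 18 of 55 beside 19 of 165. In blue they were 10 of 60 beside 32 of 180, and in DD 9 of 50 beside 32 of 151. A further hint comes from the data and not the design. With 4 letters to choose from, 13 of 24 green and 14 of 23 red libraries correlated best with their own letter. In blue these were 8 of 24 and in DD 4 of 22. Leaving out single libraries gave 3 to 9 calls in green, 9 to 28 in red and 0 to 4 in DD. Of the 32 values of likeness under other settings, 17 kept their gene among the most or least like. With a mean of 5.86 counts per library, a 0 count could not be told from a low level under its limit.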
